A study of Mus musculus with 12 samples.

Results

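Transcript levels of 9 core cardiac factors, Gata4, Gata5, Gata6, Nkx2-5, Mef2a, Mef2c, Mef2d, Srf and Myocd, were compared between hearts of E11.5 mouse embryos (E11.5H) and mouse heart organoids (HOs) after 13 days of culture. The members were taken by gene symbol, from a list drawn up with earlier results of these data known, and they are 9 of the 26190 genes in the deposited RNA-seq table. E11.5H atria and ventricles were cut from hearts of C57BL/6 embryos. HOs were grown from wild-type mouse embryonic stem cells (ESCs), as embryoid bodies placed on a laminin-entactin gel in medium with FGF4, with BMP4, the GSK3 inhibitor BIO and LIF added late in culture, and were cut into atrium-like and ventricle-like parts. The labels give the HO cells as C57BL/6, whereas the methods describe 3 ESC lines from C57BL/6 or from F1 hybrids of C57BL/6 and JF1, and which line gave which library is not stated. Each of the 4 groups had 3 libraries, described as biological replicates. The libraries are whole pieces of tissue and were not sorted, so that fewer cells of a type and less RNA per cell cannot be told apart in any value below.

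The GATA factors are zinc finger proteins, Nkx2-5 is a homeodomain protein, and the Mef2 factors and Srf are MADS-box proteins. Myocd, or myocardin, does not bind DNA itself and acts as a coactivator bound to Srf. In cardiac muscle these factors act together at promoters of sarcomere, natriuretic peptide and ion handling genes, and several of them switch on each other. None is exclusive to the heart. Gata4 and Gata6 are also factors of the endoderm, the liver and the gut, Gata5 is expressed in endocardium and gut epithelium, Myocd also acts in smooth muscle, the Mef2 factors act in skeletal muscle and neurons, and Srf is found in most cell types.

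Total counts were 23971258 to 30540993 per library, so counting error was small for all members, and the spread between HO libraries set the precision. Levels are given as FPKM, read fragments scaled to transcript length and library depth. Log2 fold changes with standard errors (SE), 95% confidence intervals (CI) and adjusted p-values are from the quasi-likelihood test of edgeR on the estimated counts. A gene was called where its adjusted p was under 0.05 and its change was over 2-fold. Replicates of 1 group correlated at 0.986 to 0.991 in E11.5H and at 0.815 to 0.936 in HOs. Hemoglobin genes held 0.560% to 5.52% of the counts in E11.5H libraries and at most 0.00218% in HO libraries.

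In HOs the 9 factors did not move as a block. Myocd and Nkx2-5 fell most, Mef2c fell in both chamber comparisons, and Gata5 fell in the atrial comparison, whereas Gata4, Gata6, Mef2d, Mef2a and Srf had log2 fold changes between -1 and 1 in both comparisons, some of which passed -1 when single HO libraries were left out. In atrium-like parts against atria, 4 of 9 factors were called and all were lower, where 24.8% of the 15418 genes tested were called and 8.81% were called lower. In ventricle-like parts against ventricles, 3 of 9 were called and all were lower, where 18.9% of 15094 genes were called and 7.35% were called lower. The median log2 fold change of the 9 factors was -0.92 in the atrial and -0.69 in the ventricular comparison, beside medians over all genes of 0.06 and 0.09. In the same comparisons 19 and 16 of 20 genes of the contractile apparatus were called lower, with medians of -3.42 and -2.71.

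**Figure D1:**
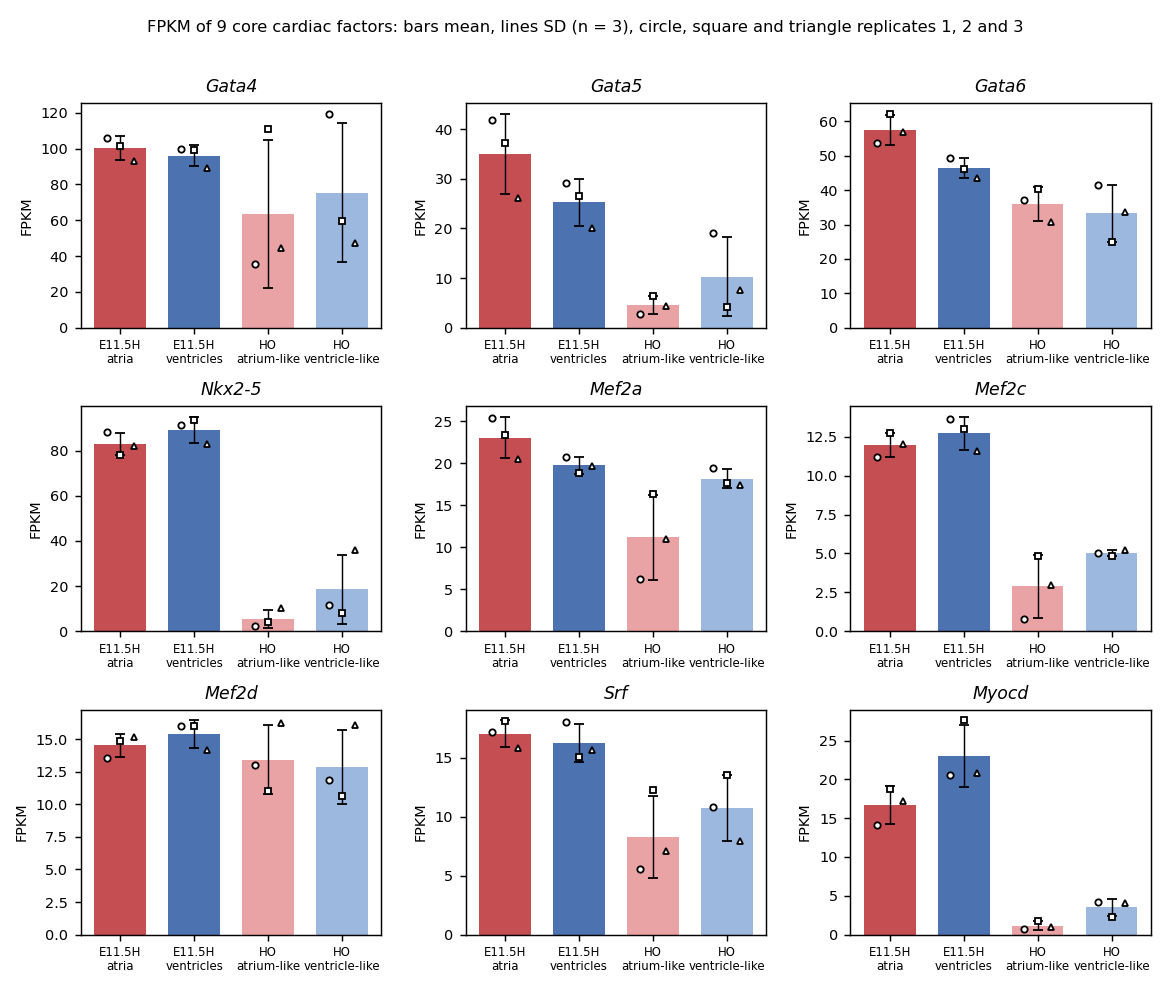
FPKM of each of the 9 factors in the 4 groups, with bars for the mean, error bars for the SD and points for the 3 libraries of each group. Gata4 and Mef2d overlap between E11.5H and HO libraries in both chambers, whereas Gata5, Gata6, Nkx2-5, Mef2c, Srf and Myocd are lower in all 6 HO libraries than in all 6 E11.5H libraries.

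The order of the factors differed between the tissues. In E11.5H atria, Gata4 had the highest mean level, followed by Nkx2-5, Gata6, Gata5 and Mef2a without overlap between neighbours, and then by Srf, Myocd and Mef2d, whose libraries overlapped between neighbours, with Mef2c lowest. In E11.5H ventricles Gata4 and Nkx2-5 overlapped at the top, Gata6 was the third, and Mef2c was again lowest. In atrium-like parts Gata4 and Gata6 overlapped at the top and stood above all other members, Nkx2-5 was at rank 6, and from Mef2d down to Myocd each neighbour overlapped with the next. In ventricle-like parts Gata4 was above Gata6 in every library. Nkx2-5 overlapped with Gata6 above it and with Mef2a below it, whereas Gata6 and Mef2a did not overlap with each other. Myocd had the lowest mean, below Mef2c in each library.

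Gata4, the GATA factor of the heart fields that also acts in endoderm, had 106, 102 and 93.1 FPKM in atria and 99.5, 99.1 and 89.4 FPKM in ventricles. It had 35.6, 111 and 44.3 FPKM in the atrium-like parts of replicates 1, 2 and 3, and 119, 59.5 and 47.3 FPKM in the ventricle-like parts. Atrium-like part 2 and ventricle-like part 1 were thus above every library of the matching E11.5H group, and the other 4 HO libraries were below it. The log2 fold change was -0.54 (SE 0.36, CI -1.41 to 0.33, adjusted p = 0.290) in the atrial and -0.43 (SE 0.35, CI -1.28 to 0.42, adjusted p = 0.383) in the ventricular comparison. Both intervals reach past a 2-fold fall. Without atrium-like part 2 the atrial value was -1.08 with an adjusted p of 0.00240, and without ventricle-like part 1 the ventricular value was -0.97 with an adjusted p of 0.0107.

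Gata6, the related factor of heart, lung and gut development, had 53.7, 62.3 and 56.9 FPKM in atria and 49.3, 46.1 and 43.7 FPKM in ventricles. It had 37.0, 40.4 and 30.7 FPKM in atrium-like and 41.3, 24.9 and 33.5 FPKM in ventricle-like parts. All HO libraries were below all E11.5H libraries, and their spread was smaller than that of Gata4. The log2 fold changes were -0.50 (SE 0.16, CI -0.89 to -0.11, adjusted p = 0.0586) and -0.57 (SE 0.20, CI -1.05 to -0.08, adjusted p = 0.0793). Without atrium-like part 1 the adjusted p of the atrial value was 0.0204 at -0.64, and without ventricle-like part 1 that of the ventricular value was 0.0465 at -0.77. On the FPKM values, limma gave the atrial change an adjusted p of 0.0158 with a pseudocount of 1 and of 0.0152 with a pseudocount of 0.1.

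Gata5, the GATA factor of the endocardium, had 41.9, 37.2 and 26.2 FPKM in atria and 29.1, 26.6 and 20.04 FPKM in ventricles. It had 2.82, 6.36 and 4.43 FPKM in atrium-like and 19.2, 4.07 and 7.66 FPKM in ventricle-like parts. No HO library reached the matching E11.5H group, although ventricle-like part 1 came within 1 FPKM of the lowest ventricle library. Gata5 fell 7.04-fold in the atrial comparison (log2 fold change -2.81, SE 0.30, CI -3.53 to -2.10, adjusted p = 0.00275). In the ventricular comparison the value was -1.37 (SE 0.56, CI -2.72 to -0.01, adjusted p = 0.114), and without ventricle-like part 1 it was -2.20 with an adjusted p of 0.0209. DESeq2 gave the ventricular change an adjusted p of 0.0372. Members of the endothelial and endocardial list, to which no GATA factor belongs, summed to 177 to 212 FPKM in E11.5H libraries and to 14.4, 81.4 and 39.2 FPKM in atrium-like and 43.1, 60.0 and 28.7 FPKM in ventricle-like parts. Their part in the Gata5 result was not tested.

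Nkx2-5, the homeodomain factor that defines cardiac progenitors and working heart muscle, had 88.2, 78.3 and 82.2 FPKM in atria and 91.5, 93.4 and 82.7 FPKM in ventricles. It had 2.34, 3.90 and 10.1 FPKM in atrium-like and 11.504, 8.11 and 36.1 FPKM in ventricle-like parts. All HO libraries lay below all E11.5H libraries, and ventricle-like part 3 stood above the other HO libraries. Nkx2-5 fell 13.6-fold in the atrial comparison (log2 fold change -3.77, SE 0.55, CI -5.08 to -2.45, adjusted p = 0.00591) and 5.11-fold in the ventricular comparison (-2.35, SE 0.57, CI -3.73 to -0.97, adjusted p = 0.0273). The atrial call held without any 1 library. The ventricular call was lost without ventricle-like part 1 (-2.09, adjusted p = 0.0860) and without ventricle library 1, 2 or 3 (adjusted p = 0.0887, 0.0918 and 0.0848). Without a ventricle library the value stayed between -2.40 and -2.34, and calls over all genes fell from 2859 to between 1116 and 1212.

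The ratio of Gata4 to Nkx2-5 within a library does not depend on how libraries are scaled to each other. It was 1.06 to 1.30 in the 6 E11.5H libraries. It was 15.2, 28.5 and 4.39 in atrium-like and 10.4, 7.33 and 1.31 in ventricle-like parts, so ventricle-like part 3 lay just above the E11.5H range and the other 5 HO libraries far above it. The ratio of Gata6 to Nkx2-5 was 0.494 to 0.795 in E11.5H, and 15.8, 10.3 and 3.05 in atrium-like and 3.59, 3.07 and 0.929 in ventricle-like parts. Both ratios have Nkx2-5 as the denominator, and Nkx2-5 fell far more than Gata4 or Gata6. High values of the ratios in HOs thus largely restate that fall. Both were lowest, among HO libraries, in ventricle-like part 3, which had the most Nkx2-5. Their low values there are therefore not separate results. The ratio of Gata4 to Gata6 ran from 1.63 to 2.15 in E11.5H libraries, and no HO library lay within that range. It was 0.962, 2.75 and 1.44 in atrium-like and 2.89, 2.39 and 1.41 in ventricle-like parts. Atrium-like parts 1 and 3 and ventricle-like part 3 were thus below the E11.5H range, and the other HO libraries were above it.

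The 3 Mef2 genes, whose proteins bind A/T-rich sites as dimers, separated from each other. Mef2c, the family member needed for the anterior heart field, had 11.2, 12.8 and 12.01 FPKM in atria, 13.6, 12.98 and 11.6 FPKM in ventricles, 0.801, 4.83 and 2.98 FPKM in atrium-like parts and 5.06, 4.82 and 5.20 FPKM in ventricle-like parts. The 3 ventricle-like parts lay close together, and all HO libraries lay below all E11.5H libraries. Mef2c fell 3.89-fold in the atrial comparison (log2 fold change -1.96, SE 0.52, CI -3.22 to -0.70, adjusted p = 0.0331) and 2.70-fold in the ventricular comparison (-1.43, SE 0.11, CI -1.69 to -1.17, adjusted p = 0.00136). The atrial call was lost without atrium-like part 3 (-2.06, adjusted p = 0.0814) and without atria library 1, 2 or 3 (adjusted p = 0.0930, 0.0969 and 0.0927), whereas the ventricular call held without any 1 library.

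Mef2a, the most abundant Mef2 gene in E11.5H, had 25.4, 23.3 and 20.5 FPKM in atria, 20.8, 18.8 and 19.7 FPKM in ventricles, 6.22, 16.3 and 10.96 FPKM in atrium-like parts and 19.4, 17.6 and 17.4 FPKM in ventricle-like parts. Atrium-like parts lay below the atria, and ventricle-like parts overlapped with the ventricles. The atrial change of -0.92 (SE 0.28, CI -1.59 to -0.25, adjusted p = 0.0487) passed the p threshold but not the 2-fold limit, and its adjusted p was 0.0997 to 0.153 without atrium-like part 3 or without atria library 1, 2 or 3. Without atrium-like part 2 it passed both limits (-1.20, adjusted p = 0.00973), as it did by limma on FPKM with a pseudocount of 1 (-1.07, adjusted p = 0.0406) or 0.1 (-1.14, adjusted p = 0.0394). The ventricular value was -0.21 (SE 0.10, CI -0.46 to 0.03, adjusted p = 0.159), an interval that lies within a 2-fold change. Mef2d had 13.6, 14.9 and 15.2 FPKM in atria, 16.0, 16.0 and 14.2 FPKM in ventricles, 13.02, 10.999 and 16.3 FPKM in atrium-like parts and 11.8, 10.6 and 16.1 FPKM in ventricle-like parts. Its groups overlapped in both comparisons, with log2 fold changes of 0.08 (SE 0.21, CI -0.44 to 0.59, adjusted p = 0.811) and -0.35 (SE 0.17, CI -0.77 to 0.07, adjusted p = 0.177), and both intervals lie within a 2-fold change. Without ventricle-like part 3 the ventricular value of Mef2d was -0.57 with an adjusted p of 0.0134. Within a library Mef2d exceeded Mef2c by a factor of 2.21 to 16.2 in HOs, beside 1.16 to 1.26 in E11.5H, which largely restates the fall of Mef2c.

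Srf, which binds the CArG box in promoters of muscle and immediate early genes, had 17.2, 18.1 and 15.8 FPKM in atria and 18.1, 15.1 and 15.6 FPKM in ventricles. It had 5.53, 12.2 and 7.09 FPKM in atrium-like and 10.8, 13.6 and 7.94 FPKM in ventricle-like parts. All HO libraries lay below the matching E11.5H libraries, with replicate 2 the highest in both kinds of part. The changes of -0.90 (SE 0.24, CI -1.48 to -0.33, adjusted p = 0.0324) and -0.69 (SE 0.20, CI -1.19 to -0.20, adjusted p = 0.0480) passed the p threshold but not the 2-fold limit. The adjusted p of the atrial value was 0.0785 without atrium-like part 3 and 0.0906 to 0.110 without 1 of the atria libraries, and that of the ventricular value was 0.0839 to 0.153 without ventricle-like part 1 or 1 of the ventricle libraries. The atrial change passed both limits without atrium-like part 2 (-1.19, adjusted p = 0.00234) and by limma on FPKM with a pseudocount of 1 (-1.02) or 0.1 (-1.11). The adjusted p of the ventricular change was 0.0542 without the low-count filter and 0.0736 and 0.0667 by limma.

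Myocd, the coactivator of Srf in heart and smooth muscle, had 14.1, 18.8 and 17.2 FPKM in atria and 20.5, 27.6 and 20.9 FPKM in ventricles. It had 0.751, 1.76 and 0.919 FPKM in atrium-like and 4.14, 2.24 and 4.07 FPKM in ventricle-like parts. The groups did not come near each other in either chamber. Myocd fell 13.3-fold in the atrial comparison (log2 fold change -3.73, SE 0.30, CI -4.46 to -3.00, adjusted p = 0.00153) and to 0.143 times the embryonic level in the ventricular comparison (-2.81, SE 0.29, CI -3.52 to -2.10, adjusted p = 0.00258), and both calls held without any 1 library. The ratio of Srf to Myocd ran from 0.547 to 1.22 in the 6 E11.5H libraries, from 6.96 to 7.72 in atrium-like parts, and was 2.61, 6.05 and 1.95 in ventricle-like parts. Its rise largely restates the fall of Myocd.

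Counted by overlap of the FPKM values alone, 7 of 9 factors in the atrial comparison had every HO library below every E11.5H library, all but Gata4 and Mef2d, where 30.3% of genes showed that pattern. In the ventricular comparison it was 6 of 9, all but Gata4, Mef2a and Mef2d, beside 21.1% of genes. With an adjusted p under 0.05 at any fold change, 6 of 9 and 4 of 9 factors were lower, beside 12.5% and 13.8% of genes.

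**Figure D2:**
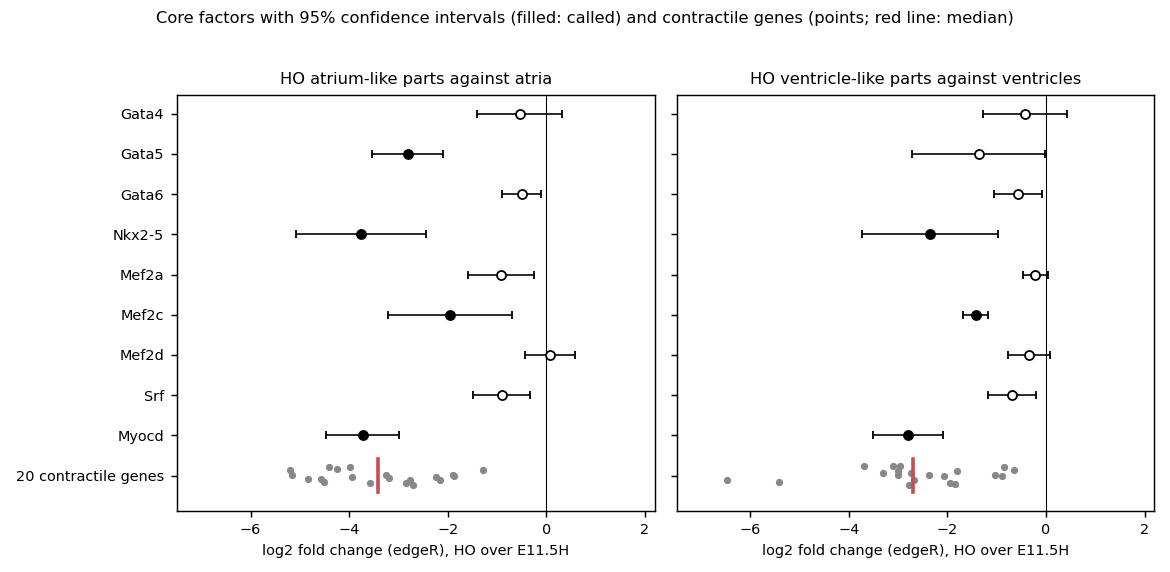
Log2 fold changes of the 9 factors and of 20 contractile genes, HO against E11.5H, with 95% CI, 1 panel for each chamber comparison, where filled symbols mark called genes and a line marks the contractile median. Gata4, Gata6, Mef2d, Mef2a and Srf lie above -1 in both panels, while Nkx2-5 (-3.77 and -2.35) and Myocd (-3.73 and -2.81) lie near the contractile medians of -3.42 and -2.71.

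The contractile list held sarcomere and myosin genes that these factors are known to drive. Actc1, the cardiac actin, had 6901 to 8697 FPKM in atria and 83.1, 439 and 235 FPKM in atrium-like parts, and 8897 to 9122 FPKM in ventricles and 1142, 710 and 1480 FPKM in ventricle-like parts. Myl7, the atrial regulatory light chain, had 11545, 9495 and 11168 FPKM in atria and 115, 291 and 415 FPKM in atrium-like parts. Tnnc1, cardiac troponin C, fell by 4.42 and 2.96 on the log2 scale. The contractile changes ran from -5.20 for Myl4 to -1.28 for Tpm1 in the atrial comparison and from -6.47 for Myh7 to -0.64 for Tpm1 in the ventricular comparison. Myl2, the ventricular light chain, was the contractile gene that was not called in the atrial comparison (-1.89, adjusted p = 0.105), and it fell by 5.42 in the ventricular comparison. Together the 20 genes summed to 28008 to 32979 FPKM in E11.5H libraries, to 581.7, 1812 and 1678 FPKM in atrium-like parts and to 4837, 2792 and 7277 FPKM in ventricle-like parts.

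Each factor was then set against the mean log2 level of the 20 contractile genes of its own library, which removes differences between libraries that act on factor and contractile genes alike. With 3 against 3 libraries the exact two-sided permutation test cannot go below p = 0.1, and 18 such values were computed. Relative to contractile genes, HO libraries held 12.4-fold more Mef2d, 8.46-fold more Gata6, 7.59-fold more Gata4, 6.30-fold more Srf and 6.16-fold more Mef2a than atria in the atrial comparison. The ventricular values were 5.43-fold for Mef2d, 4.64-fold for Gata6, 4.78-fold for Gata4, 4.29-fold for Srf and 6.06-fold for Mef2a. None of these 10 comparisons had overlapping groups, so all were at the smallest p of 0.1. On this scale 95.2% of genes in the atrial and 92.1% in the ventricular comparison were higher in HOs without overlap, with median log2 differences of 3.61 and 2.86, so the pattern is that of most genes. The log2 differences of Gata4 were 2.92 and 2.26, and only Mef2d in the atrial comparison, at 3.63, was above the median. Mef2c was higher by 2.69-fold and 2.64-fold, also at the smallest exact p of 0.1.

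Nkx2-5 and Myocd were near the proportion to contractile genes that they had in the embryo. Nkx2-5 was at 0.759 times (exact p = 0.4) the atrial and 1.12 times (exact p = 0.8) the ventricular proportion, and Myocd at 0.956 times (exact p = 0.8) and 0.998 times (exact p = 1). For Gata5 the values were 1.73-fold (exact p = 0.1) and 2.25-fold (exact p = 0.2). The sign of the ventricular Nkx2-5 value and of both Myocd values depended on the pseudocount, the list or the library left out. When edgeR itself was scaled to the contractile list, the median of all genes moved to 3.78 in the atrial and 3.05 in the ventricular comparison, and all factors had positive values except Nkx2-5 and Myocd in the atrial comparison, so the falls above are relative to the bulk of genes. A p at this size of the groups does not show that the proportions are alike.

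**Figure D3:**
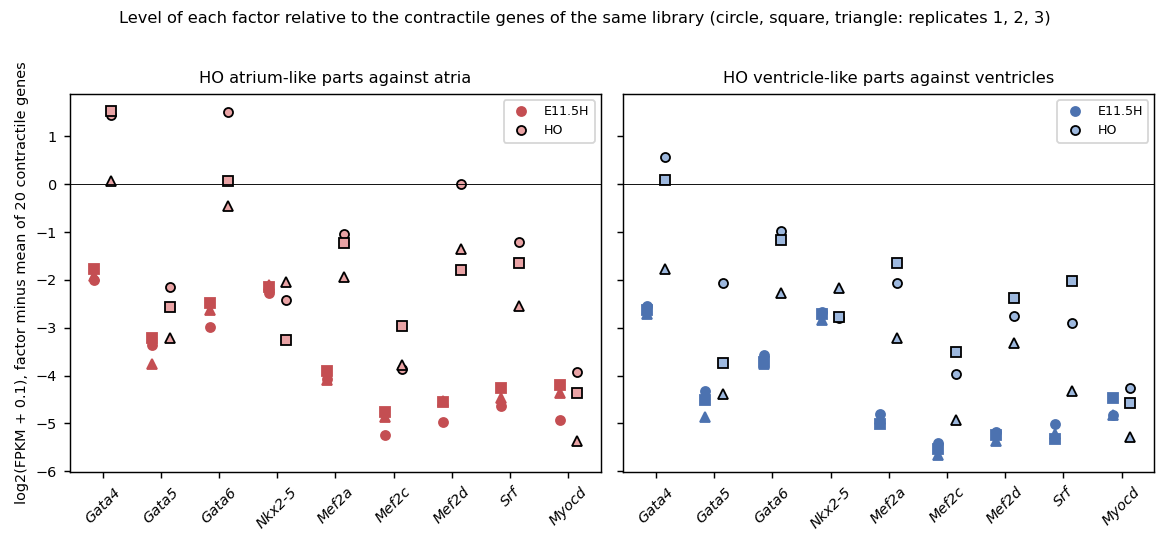
Level of each factor relative to the 20 contractile genes of the same library, as log2 values for the 3 libraries of each group. The E11.5H and HO points of Mef2d, Gata6, Gata4, Srf and Mef2a are apart in both chambers, and those of Nkx2-5 and Myocd overlap.

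Other genes known as targets of these factors were also lower in HOs. Of 16 cardiac target genes, 11 were called lower and none higher in the atrial comparison (median -3.14), and 12 lower and none higher in the ventricular comparison (median -2.42). Among all genes tested, 8.81% and 7.35% were called lower, with medians of 0.06 and 0.09. Nppa, atrial natriuretic peptide, had 2810, 1925 and 2392 FPKM in atria and 0.528, 1.06 and 2.43 FPKM in atrium-like parts, and 2819, 2597 and 3058 FPKM in ventricles and 4.01, 3.42 and 8.75 FPKM in ventricle-like parts. It fell by 10.63 and 9.13 on the log2 scale. Nppb, the related brain natriuretic peptide gene, fell by 5.68 and 6.37. Hspb7, a small heat shock protein of heart muscle, fell by 3.12 and 1.95. Atp2a2, the calcium pump of the sarcoplasmic reticulum, fell by 2.29 in the atrial comparison, and its ventricular value was -0.47 (adjusted p = 0.213).

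Targets shared by Srf with other cofactors moved differently. Of 7 immediate early genes tested, which are known for fast and transient induction, 5 were called higher in the atrial comparison (median 4.80) and 6 in the ventricular comparison (median 3.31), and none was lower. By limma on log2(FPKM + 1) the atrial median was 2.02, and with a pseudocount of 0.1 it was 4.10. Junb rose by 5.24 and 4.31, Egr1 by 4.43 and 3.30, and Ier2 by 1.37 and 1.20 on the log2 scale, whereas Vcl, which encodes vinculin, had values of -0.28 (adjusted p = 0.691) and 0.18 (adjusted p = 0.754). Of 8 smooth muscle genes, 1 was called higher and 2 lower in the atrial comparison, and 3 higher and 2 lower in the ventricular comparison. Over all genes, 2462 of 15418 and 1749 of 15094 were called higher. The medians of the smooth muscle genes were -0.91 and 0.40, with 6 and 4 of the 8 values negative, so the list had no common direction. Acta2, smooth muscle actin, fell by 2.87 and 1.99 and Cnn1, calponin, by 5.11 and 3.28, while Tagln, the transgelin gene, had values of -1.11 (adjusted p = 0.0879) and -0.52 (adjusted p = 0.399), and Cald1, caldesmon, rose by 1.496 in the ventricular comparison and had a value of 0.70 (adjusted p = 0.204) in the atrial one. Acta2 and Cnn1 are also expressed in embryonic heart muscle.

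The promoter of Srf and 4 promoters of genes that fell in HOs are shown because they carry the letters these factors bind. Each is the 250 bases before the RefSeq start in GRCm38.p6, 5′ to 3′ on the strand of the gene, and capitals mark CArG boxes and GATA motifs (spelled AGATAA, and likewise with G as the last or T as the first base, on either strand). Srf lies at chr17:46556163-46556412 (minus strand), Actc1 at chr2:114052876-114053125 (minus), Myl7 at chr11:5898783-5899032 (minus), Nppb at chr4:147985650-147985899 (plus) and Nppa at chr4:148000472-148000721 (plus).
Srf: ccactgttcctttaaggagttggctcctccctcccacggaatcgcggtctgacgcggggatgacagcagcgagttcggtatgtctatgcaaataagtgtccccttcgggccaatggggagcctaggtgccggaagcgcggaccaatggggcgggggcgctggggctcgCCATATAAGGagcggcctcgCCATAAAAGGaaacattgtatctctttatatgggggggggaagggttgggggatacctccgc
Actc1: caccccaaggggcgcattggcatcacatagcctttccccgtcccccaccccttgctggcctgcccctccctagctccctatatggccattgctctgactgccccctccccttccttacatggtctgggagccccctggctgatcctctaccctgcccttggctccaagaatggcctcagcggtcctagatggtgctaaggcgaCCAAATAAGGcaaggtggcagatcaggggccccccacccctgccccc
Myl7: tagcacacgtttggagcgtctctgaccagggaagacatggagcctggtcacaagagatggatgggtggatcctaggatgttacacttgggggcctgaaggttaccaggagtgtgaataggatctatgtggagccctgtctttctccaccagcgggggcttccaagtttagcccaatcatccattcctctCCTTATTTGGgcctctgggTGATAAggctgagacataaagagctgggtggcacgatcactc
Nppb: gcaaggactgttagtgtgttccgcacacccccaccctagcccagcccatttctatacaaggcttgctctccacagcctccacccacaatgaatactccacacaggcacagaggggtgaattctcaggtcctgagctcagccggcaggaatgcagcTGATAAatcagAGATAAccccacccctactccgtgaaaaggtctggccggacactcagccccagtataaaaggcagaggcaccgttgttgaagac
Nppa: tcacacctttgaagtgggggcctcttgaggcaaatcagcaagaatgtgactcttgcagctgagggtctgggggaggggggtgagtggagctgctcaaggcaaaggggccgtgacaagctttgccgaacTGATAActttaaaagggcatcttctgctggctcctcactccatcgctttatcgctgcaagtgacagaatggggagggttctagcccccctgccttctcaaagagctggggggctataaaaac

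The Srf promoter held CArG boxes 82 and 62 bases before the start, so the gene carries the letters its own product binds. Actc1 held a CArG box 47 bases before the start. Myl7 held a CArG box at 61 bases and a GATA motif at 42 bases before the start. Nppb held GATA motifs at 95 and 84 bases and Nppa a GATA motif at 122 bases. A match is a description of the letters and not a binding site or a cause.

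Over all 27025 genes with a RefSeq promoter, 1.62% held a CArG box and 29.7% a GATA motif in these 250 bases on either strand, and 44.3% held AAGTG, the NK2 motif. A GATA motif and the NK2 motif can share letters. Of 20 contractile genes 18 matched, and 5 of them held a CArG box (Actc1, Ldb3, Myl3, Myl7 and Myom1), 7 a GATA motif and 8 the NK2 motif. Of 16 cardiac target genes 14 matched, and 8 held a GATA motif (Bmp10, Gja1, Nppa, Nppb, Pln, Popdc2, Slc8a1 and Smpx) and none a CArG box. The immediate early genes matched for 5, of which Egr2 and Vcl held a CArG box, and the smooth muscle genes matched for 6, of which none did. Of the 9 factors 6 matched (Gata5, Mef2a, Mef2c, Mef2d, Nkx2-5 and Srf), and 1 held a CArG box, none a GATA motif and 2 the NK2 motif (Mef2c and Srf). Gata4, Gata6 and Myocd had no entry.

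Gata4 and Gata6 were read beside genes of the endoderm, since HOs held such transcripts. All 10 endoderm factors tested were called higher in atrium-like parts than in atria, with a median log2 fold change of 10.39. In ventricle-like parts, 2 of the 4 that could be tested were called higher. Among all genes tested, 2462 of 15418 and 1749 of 15094 were called higher. In the atria libraries 5, 8 and 6 of the 10 factors were at 0 FPKM, and only 1 passed the low-count filter between E11.5H chambers. Most thus entered the tests through HO libraries, which largely fixed the direction of their calls. Hnf4a, a liver and gut factor, was at 0 to 0.0134 FPKM in E11.5H, at 49.5, 9.86 and 23.7 FPKM in atrium-like parts and at 2.15, 0 and 17.8 FPKM in ventricle-like parts. Cdx2, a factor of the gut, had 61.3, 12.3 and 26.1 FPKM in atrium-like and 1.04, 0 and 18.6 FPKM in ventricle-like parts, and Foxa3, at 0 in E11.5H and 0.105 to 16.3 FPKM in HOs, was highest in the same 3 libraries as both. The 10 endoderm factors summed to 0.882 to 1.27 FPKM in E11.5H, to 173, 70.9 and 107 FPKM in atrium-like parts and to 8.26, 1.97 and 81.8 FPKM in ventricle-like parts. The sums of 12 liver and visceral endoderm genes were 2.87 to 6.70 FPKM in E11.5H, 15635, 928.6 and 6071 FPKM in atrium-like parts and 286.6, 35.7 and 5197 FPKM in ventricle-like parts.

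The 3 HO libraries with the most Hnf4a, atrium-like parts 1 and 3 and ventricle-like part 3, had the lowest Gata4 of the 6 HO libraries, at 35.6, 44.3 and 47.3 FPKM. Gata6 in them was at 37.0, 30.7 and 33.5 FPKM, within the 24.9 to 41.3 FPKM of the other HO libraries. Their ratios of Gata4 to Gata6 were 0.962, 1.44 and 1.41, below the E11.5H range, and those of the other HO libraries were 2.75, 2.89 and 2.39. A relation to endoderm content was not tested. In ventricle-like part 2, where Hnf4a and Cdx2 were at 0 and Foxa3 was at 0.105 FPKM, Gata4 was at 59.5 FPKM and Gata6 at 24.9 FPKM, the lowest Gata6 of all libraries. Ventricle-like part 1, with an endoderm factor sum of 8.26 FPKM, had 119 FPKM of Gata4 and 41.3 FPKM of Gata6. The share of Gata4 and Gata6 transcripts that came from endoderm cells cannot be measured in whole pieces of tissue. Nkx2-5 was highest in ventricle-like part 3 and next highest in ventricle-like part 1. Endoderm factors summed to 81.8 and 8.26 FPKM in these libraries, and 12 gut epithelium genes to 3607 and 1195 FPKM. Both gut sums were above the 74.1 to 101 FPKM of E11.5H libraries.

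**Figure D4:**
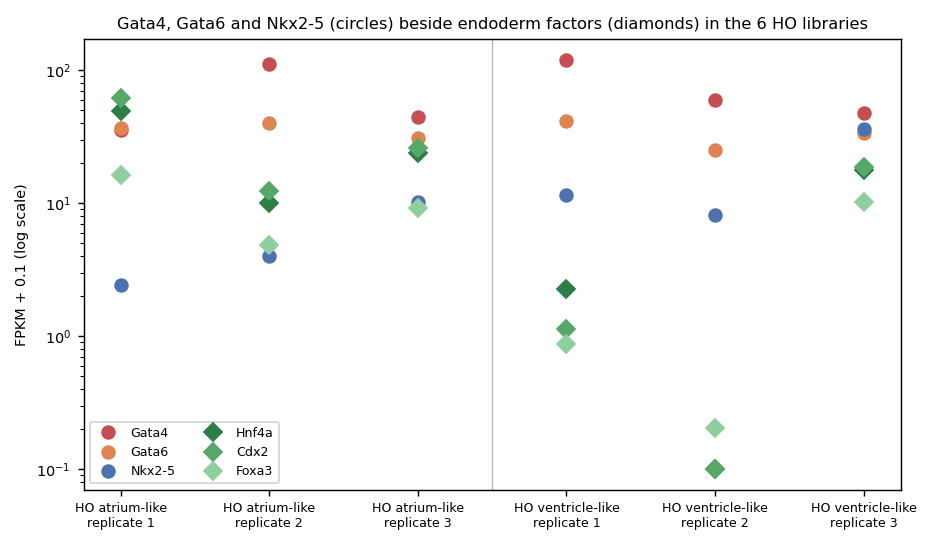
FPKM plus 0.1 on a log axis for Gata4, Gata6 and Nkx2-5 (circles) and for the endoderm factors Hnf4a, Cdx2 and Foxa3 (diamonds) in the 6 HO libraries. The endoderm factors span from 0 to 61.3 FPKM between libraries, while Gata4 stays between 35.6 and 119 FPKM and Gata6 between 24.9 and 41.3 FPKM.

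Transcripts of other cell types also moved with the HO libraries, and their part in the results above was not tested. Sums over 10 fibroblast and mesenchyme genes were 426 to 712 FPKM in E11.5H, 761, 3095 and 1060 FPKM in atrium-like parts and 4875, 2101 and 525 FPKM in ventricle-like parts, so they were highest in ventricle-like part 1 and atrium-like part 2, the libraries with the most Gata4. Of the skeletal muscle genes, Myod1 was at 10.2 FPKM in atrium-like part 2 and 19.3 FPKM in ventricle-like part 2, at 0 in the other 4 HO libraries and at 3.42 FPKM in atria library 3. Myog, a muscle differentiation factor, was at 29.0 and 30.0 FPKM in replicate 2 of the HO parts and at 7.95 FPKM in atria library 3. Skeletal muscle uses Mef2 factors, Srf and several contractile genes of the list, and Srf and Mef2c in atrium-like parts were highest in replicate 2, whereas in ventricle-like parts replicate 2 had the highest Srf but the lowest Mef2c. Among other lists, 12 of 12 gut genes were called higher in the atrial and 11 of 12 in the ventricular comparison, 3 of 10 and 7 of 10 macrophage genes were called higher, and 9 of 9 erythroid genes were called lower in both. Of 8 epicardial genes 7 were called lower and 1 higher in the atrial, and 1 lower and 1 higher in the ventricular comparison. Of 10 endothelial genes 2 and 3 were called lower, but all 10 had negative values in both comparisons (medians -2.25 and -2.43). In each, 9 of them were lower without overlap, beside 30.3% and 21.1% of genes. Of 10 fibroblast genes 3 and 3 were called higher, and of the neural genes none of 8 and 1 of 9. Over all genes, 2462 of 15418 were called higher in the atrial and 1749 of 15094 in the ventricular comparison, and 8.81% and 7.35% lower. For skeletal muscle none of 7 and 1 of 4 tested genes were called, higher.

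Relatives of the factors were mostly at low levels. Gata2, a factor of blood, endothelium and neurons, had 3.87 to 5.65 FPKM in E11.5H and 0.802 to 10.8 FPKM in HOs, and Gata3 had 1.81 to 4.18 FPKM and 0.370 to 18.9 FPKM. Neither was called (log2 fold changes 0.61 and 0.09 for Gata2, 1.12 and 1.52 for Gata3). Mrtfa and Mrtfb, the myocardin-related coactivators of Srf that are found in most tissues, had values of -0.24 and -0.05 and of -0.07 and 0.40, with adjusted p of 0.205 to 0.887, while Myocd of the same family fell in both comparisons. Mef2b had at most 0.216 FPKM in E11.5H and 0.255 to 2.52 FPKM in HOs (log2 fold changes 3.33 and 4.27, adjusted p = 0.0880 and 0.0813). Gata1, the erythroid GATA factor, was the relative that was called, lower in both comparisons, with 1.11 to 6.27 FPKM in E11.5H and at most 0.0162 FPKM in HOs. Nkx2-6, the nearest relative of Nkx2-5, had 1.64, 0.774 and 0.2502 FPKM in ventricles and was at 0 in the other libraries except ventricle-like part 3, at 0.213 FPKM.

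Among 18 partner factors and cofactors, 4 were called lower and 4 higher in the atrial comparison (median -0.38), and 4 lower and 2 higher in the ventricular comparison (median -0.80). Of the 15418 genes tested in the atrial comparison, 1359 were called lower and 2462 higher. Of the 15094 in the ventricular comparison, 1110 were called lower and 1749 higher. Smyd1, a muscle methyltransferase, had 45.3, 41.6 and 38.9 FPKM in atria and 0.832, 2.51 and 1.87 FPKM in atrium-like parts, and it fell by 4.47 and 2.71 on the log2 scale. Tbx5, the T-box factor that binds with Gata4 and Nkx2-5, fell by 3.18 in the atrial comparison, and its ventricular value was -0.32 (adjusted p = 0.419). Hopx and Tbx20 were called in neither comparison, though the ventricular change of Tbx20 of -0.96 had an adjusted p of 0.00763. Also lower in both were Zfpm2, the GATA cofactor FOG2, by 2.17 and 1.18, and Hdac9, a repressor of Mef2, by 2.88 and 1.38. Tbx3, a conduction system factor, rose by 1.01 and 2.39. Hand1 went opposite ways, by 5.05 in the atrial and -1.62 in the ventricular comparison. It had 0.172 to 0.789 FPKM in atria against 36.2 to 42.0 FPKM in ventricles. Atrium-like parts had 3.30, 2.25 and 40.9 FPKM, so the size of the atrial rise rests largely on part 3. Ventricle-like parts had 9.70, 14.0 and 17.4 FPKM. Zfpm2, Hdac9, Tbx3 and Hand1 were named after their values were seen.

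Between the chambers, no factor was called in either tissue. In E11.5H atria against ventricles, where 4.9% of 14536 genes were called, Myocd was at -0.53 (SE 0.13, CI -0.82 to -0.25, adjusted p = 0.0207) and Gata6 at 0.24 (SE 0.07, CI 0.09 to 0.40, adjusted p = 0.0434). Each had no overlap between the 3 atria and the 3 ventricles, a pattern of 33.1% of genes, and 2 of 9 factors with an adjusted p under 0.05 stand beside 13.6% of genes. The p of Myocd was over the threshold without atria library 1 (0.0557) or 3 (0.0589) or ventricle library 2 (0.0756), and when all 12 libraries shared 1 fit (0.769). That of Gata6 was 0.0773 to 0.142 without any 1 library other than atria library 1, 0.0504 without the low-count filter and 0.950 in the shared fit. In HO atrium-like against ventricle-like parts edgeR called 0% of 15703 genes, with 5.66% at an unadjusted p under 0.05 and 72 genes called by DESeq2. The factor with the lowest p there was Myocd at -1.49 (SE 0.42, CI -2.50 to -0.47, unadjusted p = 0.0114, adjusted p = 0.750), and Nkx2-5 was at -1.61 (adjusted p = 0.750). The difference between the tissues in the chamber effect, tested as an interaction, was called for 0.152% of 16494 genes and for none of the 9 factors, of which Mef2a (unadjusted p = 0.0416) and Myocd (0.0465) were under an unadjusted p of 0.05, as were 11.7% of genes.

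Likeness to other genes was described over the 6 HO libraries, because the 12 libraries form 2 separate sets and a pooled coefficient would mainly measure the gap between them. Some points may come from the same organoids, all are affected by depth and cell make-up, and 12140 genes were searched. None of the coefficients therefore carries a test, and the medians below have no background over other genes. All 20 contractile genes had negative values in atrium-like against ventricle-like parts, 14 of them without overlap. A gene with the same difference between parts would thus tend to have a high median. On log2 CPM, Nkx2-5 and Myocd had the highest median Pearson r with the 20 contractile genes, 0.878 and 0.870, followed by Mef2a (0.795), Mef2c (0.765) and Gata5 (0.584). The medians were 0.212 for Srf, 0.195 for Gata4, -0.058 for Mef2d and -0.307 for Gata6. The single genes most like each factor were Igfbp6 for Gata4 (r = 0.989), Ddc for Gata5 (r = 0.996), Hspd1 for Gata6 (r = 0.990), Grb14 for Nkx2-5 (r = 0.991), Serpina3i for Mef2a (r = 0.998), Suv39h2 for Mef2c (r = 0.994), Vrk3 for Mef2d (r = 0.996), Trib2 for Srf (r = 0.997) and Hdac9 for Myocd (r = 0.997).

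In GRCm38 the table places Gata4 at chr14:63198914-63245271, Gata5 at chr2:180325088-180334679, Gata6 at chr18:11052510-11085635, Nkx2-5 at chr17:26838665-26841565, Mef2a at chr7:67231163-67372858, Mef2c at chr13:83504034-83667079, Mef2d at chr3:88142372-88172091, Srf at chr17:46546839-46556162 and Myocd at chr11:65176571-65269989. Gata6, Mef2c and Mef2d lie on the plus strand and the others on the minus strand. Gata5, Gata6, Mef2a, Mef2d and Srf overlap with a gene on the other strand (Gata5os, 1010001N08Rik, Lysmd4, 1700113A16Rik and Gm26904), and whether the counts used strand is not given in the sources used here, so reads of such pairs could not be told apart if they did not.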

How the data were processed

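RNA-seq libraries of 4 groups with 3 replicates each were analysed. Per the submitters' processing notes and the methods, the authors aligned reads with STAR to mm10 (GRCm38), and the deposited table holds estimated counts and FPKM for 26190 genes. The counter, annotation release and strand setting are not given in the sources used here. Of 314280 deposited count values 23.8% were not whole, and these estimated counts were rounded before the tests. In the deposited FPKM values, 1 denominator per library scales every gene, without correction for library composition. No column held another sample's values.

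Groups were taken from the labels. Each comparison was fitted on its own 6 libraries, and the interaction on all 12, with edgeR 4.0.16 (R 4.3.3; TMM scaling, filterByExpr with a count minimum of 10, quasi-likelihood F-test, Benjamini-Hochberg adjustment over all genes tested). A call needed an adjusted p under 0.05 together with a log2 fold change above 1 or under -1. Alternatives were DESeq2 1.42.0 and its size factors, limma 3.58.1 on log2(FPKM + 0.1) and log2(FPKM + 1), no filter, hemoglobin genes removed, scaling to the contractile list, 1 fit of all 12 libraries, the replicate number as a block, each library left out and, chosen after seeing the data, liver and gut genes removed from the library size. The scripts were tested on simulated data. Levels relative to contractile genes used log2(FPKM + 0.1) within a library and exact permutation tests (Python 3.11.15, scipy 1.17.1), figures matplotlib 3.10.9, and likeness log2(CPM + 1).

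The 9 factors and the gene lists were chosen with earlier results of these data known. Beside all relatives of the factors, the genes open to naming were the 4 of each list with the highest mean FPKM and those with the extreme changes where a range is given. Others are said to be named after their values were seen, apart from genes of the promoter search. Promoter sequences are RefSeq windows on GRCm38.p6, of which the 250 bases before the start were searched on both strands. Depth was 23971258 to 30540993 counts per library (median 27966136), and 4740 genes had no count. Replicate numbers are not stated to pair samples. Same-numbered samples were correlated in their deviations from the group means. The values were 0.018, 0.035 and 0.079 between E11.5H chambers and -0.075, 0.611 and 0.417 between HO parts. The main fits did not treat them as pairs, and the replicate number as a block was an alternative. If HO parts of 1 number came from the same organoids, the main HO chamber test and the interaction left that pairing out. P-values set the difference between groups against the spread between these libraries.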

Additional observations from a re-analysis of the deposited data

How the results depend on the processing

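Scaling each library to the contractile list, by construction, moved the median of all genes to 3.78 in the atrial, 3.05 in the ventricular, 0.76 in the E11.5H chamber and 1.498 in the HO chamber comparison. On that scale 14019 of 14122 calls in atrium-like parts and 13730 of 13807 in ventricle-like parts were higher, beside 2462 of 3821 and 1749 of 2859 by TMM, E11.5H chambers had 2992 calls, HO chambers 1456 and the interaction 8. In the atrial comparison Gata4 was 3.07, Gata5 0.82, Gata6 3.33, Mef2a 2.67, Mef2c 1.43 and Srf 2.75, with list medians of 0.11 for contractile genes, 0.25 for cardiac targets, 3.43 for partners and 2.55 for smooth muscle genes. In the ventricular comparison Gata4 was 2.55, Gata5 1.49, Gata6 2.32, Nkx2-5 0.19, Mef2a 2.74, Mef2c 1.498, Mef2d 2.49, Srf 2.38 and Myocd 0.013, with medians of 0.016 for contractile genes, 0.37 for cardiac targets and 2.17 for partners. Between E11.5H chambers Gata4 was 0.73, Nkx2-5 0.56, Mef2c 0.59, Mef2d 0.59, Srf 0.74 and Myocd 0.23. Between HO parts Gata4 was 1.25, Gata5 0.46, Nkx2-5 0.039, Mef2a 0.82, Mef2c 0.52, Srf 1.11 and Myocd 0.11, and in the interaction Gata4 was 0.52 and Srf 0.37.

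DESeq2 called 72 genes between HO parts and 461 in the interaction. With all 12 libraries in 1 fit, E11.5H chambers had 30 calls. On log2(FPKM + 1), limma called 386 genes between E11.5H chambers and 89 in the interaction, and on log2(FPKM + 0.1) it called 45 in the interaction. Gata4 between E11.5H chambers was then 0.062 with either pseudocount, Srf 0.065 and 0.069, Mef2d in the atrial comparison -0.12 and -0.13, and Gata6 in the interaction -0.17. Of the atrial calls by limma, 1779 of 3454 and 2249 of 4347 were higher. Relative to contractile genes, a list without chamber genes gave Nkx2-5 a ventricular value of -0.31, log2(CPM + 1) gave Myocd 0.018 in the ventricular comparison, and a pseudocount of 1 gave Myocd 0.60 and 0.24.

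With the replicate number as a block, calls were 621 between E11.5H chambers, of which 600 were among the 712 without it, 2806 in the atrial and 2003 in the ventricular comparison, and 5 instead of 25 in the interaction. Mef2a and Srf in the atrial comparison then had adjusted p of 0.0819 and 0.0504, Srf in the ventricular comparison 0.0836 and Gata6 between E11.5H chambers 0.0747. Whether the numbers pair the samples is not stated. HO replicates 2 and 3 correlated best with their own number across parts, and HO replicate 1 did not.

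Leaving out 1 library gave 1662 to 5495 atrial calls, 1116 to 3725 ventricular calls and 2 to 216 interaction calls. Without 1 of the E11.5H libraries, atrial calls were 1662 to 1726 and ventricular calls 1116 to 1212, beside 3821 and 2859 in the main fits. Calls of factors that were lost there were thus lost along with those of many other genes. Values that changed sign ranged from -0.064 to 0.040 for Gata4 and from -0.062 to 0.059 for Srf between E11.5H chambers, from -0.66 to 0.38 for Gata4 between HO parts, from -0.089 to 0.26 for Mef2d in the atrial comparison, and in the interaction from -0.65 to 0.40 for Gata4 and from -0.15 to 0.25 for Gata6. Relative to contractile genes they ranged from -0.38 to 0.34 for Myocd in the atrial comparison, and in the ventricular comparison from -0.049 to 0.27 for Nkx2-5 and from -0.23 to 0.28 for Myocd. The causes of these changes were not tested. With 3 libraries a group, and HO replicates that differ in make-up, changes under 2-fold were not resolved for most factors.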
